A study of Mus musculus with 12 samples.

Results

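The genes described here are the mouse zinc finger genes with symbols Zfp900 to Zfp999. The annotation holds 63 of them as protein-coding genes, and 39 reached at least 10 unstranded counts in at least 3 of the 12 libraries of the series. Members were selected on their symbols and on these counts over all groups, but the range of symbols was chosen with earlier results of these data known. These 39 genes are called members below. Hepatocytes are the metabolic cells of the liver, and the study cultured primary ones from mouse. Its 12 libraries form 4 groups of 3, and all were made from total RNA with the SMART-Seq v4 kit. Control hepatocytes received neither a scavenger nor FAC, a name the labels use without expanding it. FAC hepatocytes received FAC without a pretreatment. Lip-1+FAC hepatocytes were given liproxstatin-1, which the labels call a scavenger of lipid reactive oxygen species (ROS), and FAC afterwards. MT+FAC hepatocytes were given Mito-TEMPO, which the labels call a scavenger of mitochondrial ROS, and FAC afterwards. Both scavengers were added on day 2 in culture. No group received a scavenger without FAC, and the labels give no strain, genotype or age. The labels do not say that replicates came from separate animals or cultures, so the p-values measure the spread between these samples only, which may be technical.

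Zinc finger proteins of the C2H2 type read DNA through a row of small modules, in each of which a pair of cysteines and a pair of histidines hold a zinc ion. Many of them carry a KRAB domain, which recruits the corepressor Trim28 and, through it, the histone methyltransferase Setdb1, a machinery best known for silencing transposable elements. Such genes multiplied by tandem duplication, so that close copies lie side by side in clusters. In mouse liver, KRAB zinc finger proteins of this kind are known as repressors of genes that differ between the sexes. In the annotated coding sequences, 38 of the 39 members held at least 1 finger pattern, with a median of 11 patterns and a maximum of 21 in Zfp974. The pattern was C, 2 to 4 residues, C, 12 residues, H, 3 to 5 residues and H. Zfp972 had none in its annotated coding sequence of 417 bases.

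Copies can be so alike that a read cannot be placed. The start regions of the chromosome 2 members are shown first as an example of likeness between copies. Most of each stretch lies before the annotated start, so it does not show how many reads can be placed. That was measured on transcripts, as given further on. Zfp970, Zfp972, Zfp971 and Zfp931 lie within 614 kb, at chr2:177464733-178078476 of build GRCm38. The sequences are RefSeq promoters of build GRCm38.p6, from 250 bases before to 50 bases after an annotated start, printed 5′ to 3′ on the strand of the gene. Capitals mark a stretch of 30 bases that all 4 share exactly.
Zfp970, chr2:177464492-177464791, plus strand: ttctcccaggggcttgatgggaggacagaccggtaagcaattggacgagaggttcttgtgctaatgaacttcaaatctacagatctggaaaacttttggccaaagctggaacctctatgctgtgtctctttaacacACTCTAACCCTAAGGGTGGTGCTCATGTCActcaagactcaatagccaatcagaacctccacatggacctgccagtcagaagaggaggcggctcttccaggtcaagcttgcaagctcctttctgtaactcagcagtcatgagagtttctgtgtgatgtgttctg
Zfp971, chr2:178023034-178023333, plus strand: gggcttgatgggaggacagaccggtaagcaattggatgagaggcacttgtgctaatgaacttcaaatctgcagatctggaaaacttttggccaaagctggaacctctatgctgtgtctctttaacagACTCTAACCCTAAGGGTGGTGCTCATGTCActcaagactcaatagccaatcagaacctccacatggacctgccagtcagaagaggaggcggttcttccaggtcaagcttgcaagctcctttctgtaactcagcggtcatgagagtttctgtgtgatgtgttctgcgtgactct
Zfp931, chr2:178078376-178078675, minus strand: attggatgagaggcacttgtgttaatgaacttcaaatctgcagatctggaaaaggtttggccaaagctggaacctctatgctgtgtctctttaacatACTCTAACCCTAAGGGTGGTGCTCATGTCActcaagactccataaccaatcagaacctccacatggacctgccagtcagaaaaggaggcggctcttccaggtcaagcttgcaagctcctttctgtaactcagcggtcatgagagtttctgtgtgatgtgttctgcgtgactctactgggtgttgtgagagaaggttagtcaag
Zfp972, chr2:177925601-177925900, minus strand: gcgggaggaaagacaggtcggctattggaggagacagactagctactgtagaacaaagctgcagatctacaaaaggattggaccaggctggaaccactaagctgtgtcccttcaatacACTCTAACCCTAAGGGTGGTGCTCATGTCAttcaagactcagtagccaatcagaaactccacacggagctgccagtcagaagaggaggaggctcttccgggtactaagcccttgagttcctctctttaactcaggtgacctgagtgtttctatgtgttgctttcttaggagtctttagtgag
Zfp970 and Zfp971 were identical at 97.6% of 291 aligned bases, with 7 mismatches. Zfp970 and Zfp931 were identical at 95.4% of 261 aligned bases. Zfp972 was the most distant, with 80.9% to 81.7% identity to the other promoters. The 30 shared bases occurred in 33 of 32851 RefSeq promoters (0.1005%), which belong to 29 genes, all on chromosome 2.

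A pair of neighbours on chromosome 17 is shown because their levels moved in opposite directions after FAC, as given further on. Zfp948 and Zfp983 start less than 100 kb apart on the same strand, and their promoters were identical at 79.8% of 262 aligned bases. Capitals mark the 6 letters TGACGT, the core of the element bound by CREB and ATF factors.
Zfp948, chr17:21566728-21567027, plus strand: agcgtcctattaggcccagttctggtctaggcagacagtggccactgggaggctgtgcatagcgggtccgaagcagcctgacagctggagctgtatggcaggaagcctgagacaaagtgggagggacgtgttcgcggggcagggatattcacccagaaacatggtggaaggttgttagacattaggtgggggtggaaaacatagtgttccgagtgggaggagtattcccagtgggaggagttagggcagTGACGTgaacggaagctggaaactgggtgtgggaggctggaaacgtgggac
Zfp983, chr17:21650361-21650660, plus strand: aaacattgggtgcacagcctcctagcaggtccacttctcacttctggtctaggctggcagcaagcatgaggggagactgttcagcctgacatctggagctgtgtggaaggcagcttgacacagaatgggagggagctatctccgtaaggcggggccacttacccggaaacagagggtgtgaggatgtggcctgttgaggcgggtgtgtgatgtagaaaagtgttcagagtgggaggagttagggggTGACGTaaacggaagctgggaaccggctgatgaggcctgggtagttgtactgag
TGACGT was found on either strand in the promoters of 8 of the 37 members with a RefSeq promoter, and in 7.51% of all 32851 promoters. A member counted when any of its promoters held the letters, whereas all promoters were counted singly, so these shares differ in unit. The match is a description of these letters and does not show a bound site.

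Gene-assigned counts lay between 22991598 and 31683376 per library, apart from FAC replicate 2 with 52529278, whose file is marked as combined without saying what was combined. Values are counts per 1000000 gene-assigned reads (CPM), with library sizes scaled by the trimmed mean of M-values (TMM). Hepatocyte markers summed to 16759 to 17221 CPM in Control and 16192 to 16823 CPM in FAC, and to 12646 to 14364 CPM in the pretreated groups. All 4 cholangiocyte markers were called higher in FAC than in Control. They summed to 58.0 to 74.3 CPM in FAC, 20.9 to 23.8 CPM in Control, 12.4 to 15.6 CPM in Lip-1+FAC, with 17.1 to 20.1 CPM in MT+FAC. The 5 macrophage markers summed to 286 to 317 CPM in FAC, 220 to 252 CPM in Control, and 113 to 171 CPM in the pretreated groups, with 1 called higher and 1 lower in FAC against Control. Of the 5 stellate cell markers 3 were tested and 1 was called higher in FAC, with sums of 16.7 to 17.4 CPM there against 6.47 to 11.2 CPM in Control. In the pretreated groups these sums were 5.17 to 7.51 CPM. None of the 5 endothelial markers was called in FAC against Control. They summed to 34.5 to 35.9 CPM in Control, 33.3 to 34.2 CPM in FAC and 24.7 to 29.5 CPM in the pretreated groups. The leukocyte markers summed to at most 0.432 CPM, with Cd3e at 0 in every library. Bulk samples do not show whether reads of these markers came from other cell types or from the hepatocytes. The part of other cell types in the members' changes was not tested. In bulk samples, fewer cells of a type and less RNA per cell cannot be told apart.

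The members and the 24 genes that did not reach the threshold differed in how much sequence they shared with other genes. A gene's annotated transcripts were cut into all windows of 100 bases, the read length, and a window was called unique where it occurred in no other annotated gene. The members had a median of 98.4% unique windows, 13 of them were fully unique, and 1 was under 50%. The 24 genes below the threshold had a median of 47.0% unique windows, and 12 of them were under 50%. Their highest count in any library was 13, and 6 of them had no count in any library. In the chromosome 2 array, the 6 genes below the threshold were 0% to 26.8% unique and reached at most 5 counts. The 4 members of that array were 68.0% to 93.1% unique. In the chromosome 4 array, 14 genes below the threshold ranged from 28.2% to 98.3% unique, so that low counts there also occurred in genes with hardly any shared window. These shares hold for windows of 100 bases. With windows of 200 bases each of the 24 genes had the same or a higher unique share. As examples, Zfp988 went from 55.4% to 81.7% and Zfp987 from 29.2% to 58.2%, while Zfp967 and Zfp969 stayed at 0%. Reads that map to several places are counted towards no gene in these files. The levels of shared genes are therefore too low, and whether a gene at 0 counts is transcribed was not tested. The most shared member was Zfp960, named after its values were seen, which had 31.7% unique windows and shared 68.3% with Zfp97.

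**Figure D1:**
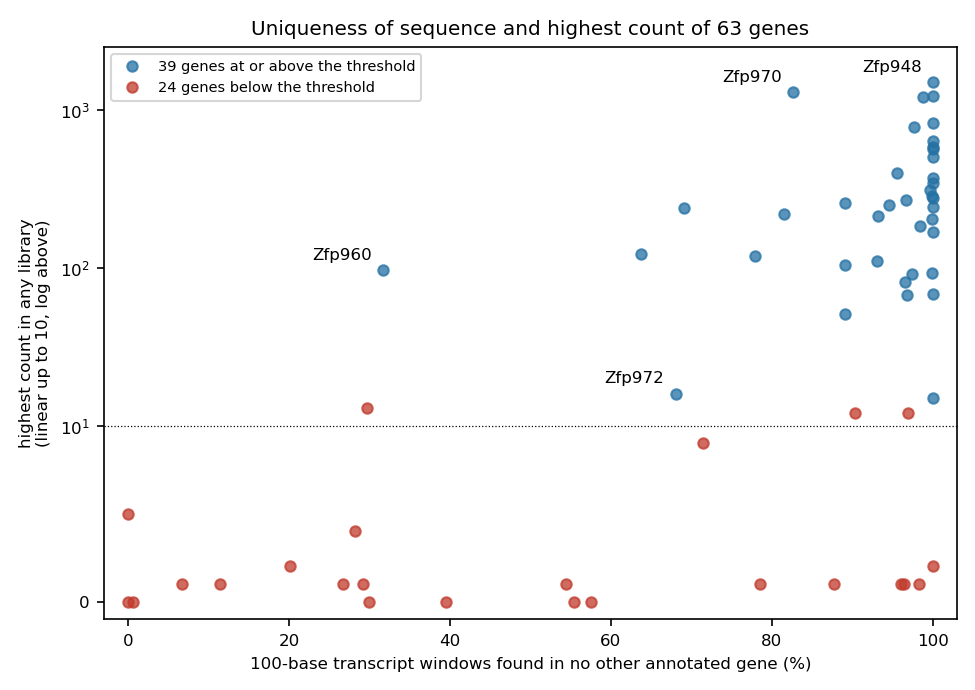
Share of 100-base transcript windows found in no other annotated gene (horizontal axis, percent) against the highest count in any library (vertical axis, linear up to 10 and logarithmic above, dotted line at 10) for the 63 genes. The 39 genes at or above the threshold have highest counts of 15 to 1500, and the 24 genes below it have 0 to 13.

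At the threshold itself, Zfp977 had 10 counts in the library that ranked 3 by its count and Zfp972 had 13, just inside. By the same measure Zfp992 had 9, and Zfp934 and Zfp982 had 8, just outside. The other 37 members had at least 10 counts in all 12 libraries, and no member passed through a single group. Mean levels over all libraries ranged from 0.258 CPM for Zfp977 to 28.0 CPM for Zfp970, with a median of 5.73 CPM. On the scale of CPM per kilobase of exon, the highest were Zfp970 at 12.9, Zfp954 at 9.71, Zfp948 at 8.86, Zfp944 at 6.49 and Zfp946 at 4.56. That order depends on the group, because Zfp970 stood at 20.1 CPM per kilobase in Control and at 3.15 in FAC. The 39 members together made up 321 ± 10.9 CPM in Control, 255.5 ± 4.68 CPM in FAC, 332 ± 11.5 CPM in Lip-1+FAC, with 327 ± 16.6 CPM in MT+FAC (each with its SD over 3 libraries). Without Zfp970 these sums were 277 ± 15.2, 249 ± 3.16, 302 ± 9.44 and 296 ± 18.0 CPM in the same order. The FAC sum was thus the lowest of the 4 both with and without Zfp970.

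**Figure D2:**
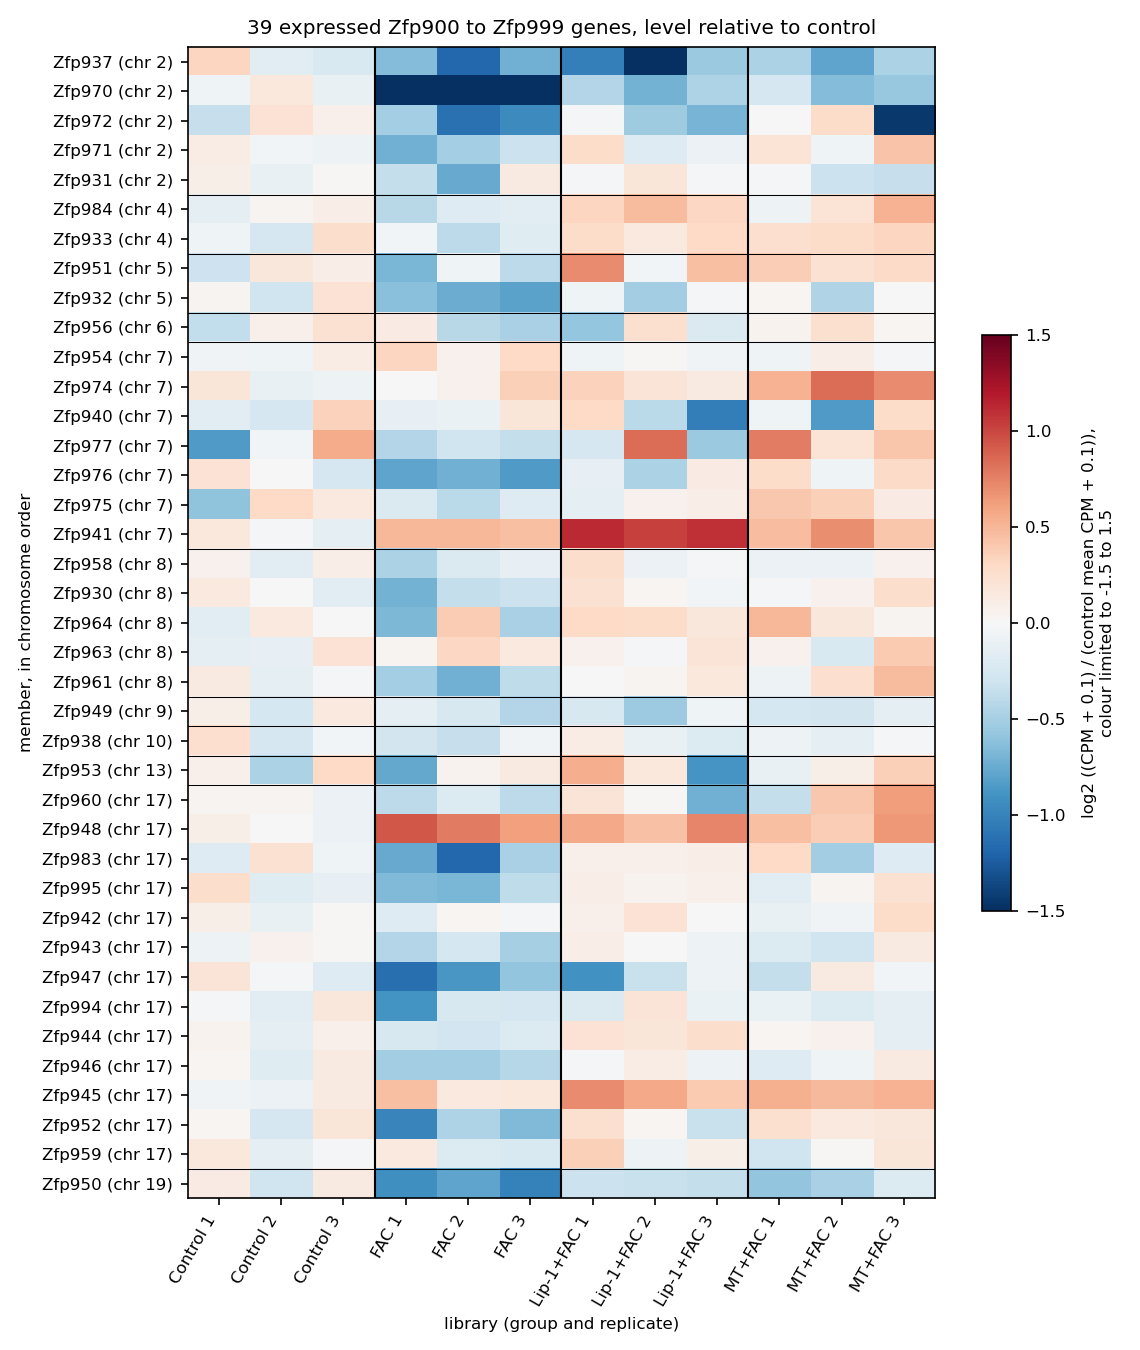
Level of each of the 39 members (rows, in chromosome order) in each of the 12 libraries (columns, by group), as log2 of CPM plus 0.1 over the control mean plus 0.1. Blue is below and red above the control mean, and the FAC columns hold 33 members with a negative fitted log2 fold change and 6 with a positive one.

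FAC against Control asks what FAC alone did to these genes. Of the 39 members, 14 fell and 2 rose by edgeR's quasi-likelihood test at a Benjamini-Hochberg adjusted p under 0.05. Over all 13535 genes tested, 36.6% were called, 17.5% as higher and 19.1% as lower. The share of members that fell was 35.9% and the share that rose was 5.13%. The median log2 fold change was -0.32 over the members and -0.0061 over all genes tested. Among the other Zfp genes, 48 rose and 55 fell of 277 tested, with a median of -0.027. The difference between these lists was not tested. The largest falls were those of Zfp970, Zfp937, Zfp950, Zfp947 and Zfp983, and the 2 rises were those of Zfp948 and Zfp941. Zfp954, at 0.23 with overlapping libraries, did not pass (adjusted p = 0.0579 by edgeR) but was called higher in 6 of 16 alternatives, DESeq2 among them. In each of the 16 called members the 3 FAC libraries lay entirely to one side of the 3 Control libraries. The call of 7 of the 16 members stood in all 16 alternative settings, and without FAC replicate 2 the counts were 10 lower and 3 higher.

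**Figure D3:**
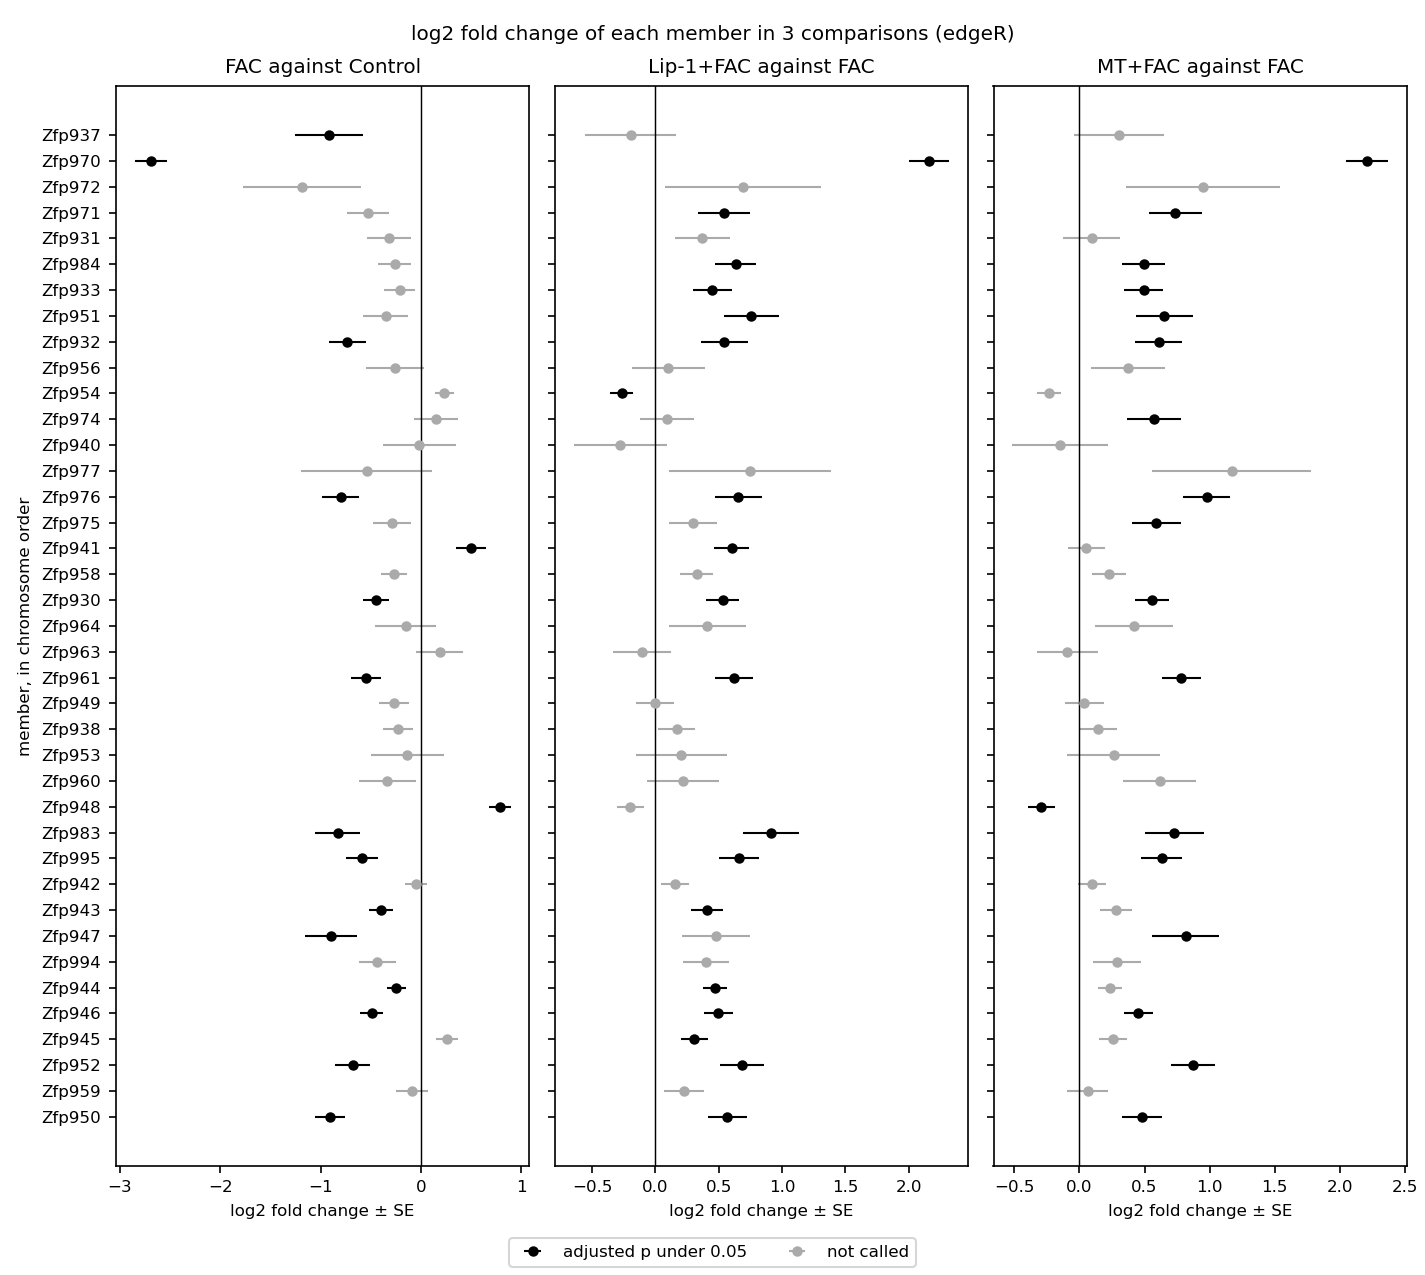
Fitted log2 fold change of each of the 39 members (rows, in chromosome order) in 3 comparisons, with its standard error as a bar. Black points passed an adjusted p of 0.05 and grey points did not, and the counts of lower and higher calls are 14 and 2 in FAC against Control, 1 and 18 in Lip-1+FAC against FAC, and 1 and 17 in MT+FAC against FAC.

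The chromosome 2 cluster held the member with the widest range. Zfp970 had 41.9, 48.7 and 40.6 CPM in the Control libraries and 5.33, 6.28 and 8.88 CPM in the FAC libraries. It had 32.3, 26.7 and 31.8 CPM in Lip-1+FAC, with 36.6, 27.9 and 29.4 CPM in MT+FAC. All FAC libraries were low, all pretreated libraries lay between FAC and Control, and no pretreated library reached a Control library. The group means were 43.7 ± 4.39 CPM in Control, 6.83 ± 1.84 CPM in FAC, 30.3 ± 3.08 CPM in Lip-1+FAC, with 31.3 ± 4.68 CPM in MT+FAC (n = 3, SD). The log2 fold change was -2.69 (SE 0.161) in FAC against Control, 2.16 (SE 0.161) in Lip-1+FAC against FAC and 2.21 (SE 0.160) in MT+FAC against FAC. Zfp970 was singled out with these values known, so they are given as a description without a p-value. Its transcripts were 82.6% unique at 100 bases, and its coding sequence of 1566 bases was 96.4% identical over 897 aligned bases to those of Zfp965 and Zfp973, which reached at most 1 count. The share of multimapping reads was 5.53% to 5.94% in Control, 5.85% to 6.23% in FAC and 4.88% to 5.20% in the pretreated groups, and its part in these levels was not tested.

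The other members of that cluster had lower levels and smaller differences. Zfp971, whose coding sequence was 91.2% identical to that of Zfp970, had 3.46, 3.11 and 3.04 CPM in Control and 1.90, 2.22 and 2.54 CPM in FAC. The groups did not overlap, but the log2 fold change of -0.53 (SE 0.206) did not pass (adjusted p = 0.0529 by edgeR). It passed with upper-quartile scaling and without FAC replicate 3. Zfp931 had 3.72, 3.23 and 3.55 CPM in Control and 2.70, 2.03 and 3.84 CPM in FAC, groups that overlapped, with a log2 fold change of -0.32 (SE 0.218). FAC replicate 3 lay above all Control libraries while the other FAC libraries lay below them, and the value passed without it. Zfp972 had 0.299, 0.488 and 0.434 CPM in Control and 0.256, 0.134 and 0.162 CPM in FAC, and its log2 fold change of -1.18 (SE 0.591) did not pass (adjusted p = 0.129 by edgeR). The groups did not overlap, and it had only 2 to 16 counts per library over the 12 libraries. The promoters of Zfp970 and Zfp971 shown above thus differ at 7 aligned bases, whereas their FAC values of -2.69 and -0.53 lie far apart on the log2 scale. The difference between these genes was not tested.

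Other genes inside the same span were measured too. It holds 6 further protein-coding genes, of which 5 were tested, and 3 of them fell after FAC, where 19.1% of all genes were called lower. Gm14327 had 3.33, 4.88 and 4.66 CPM in Control and 0.987, 0.766 and 0.606 CPM in FAC, a log2 fold change of -2.44 (SE 0.229, adjusted p = 2.908e-07 by edgeR). Gm14403 had 11.7, 10.5 and 12.8 CPM in Control and 3.73, 4.31 and 4.97 CPM in FAC, a log2 fold change of -1.43 (SE 0.157, adjusted p = 1.75e-06 by edgeR). Gm14325 had 7.35, 8.63 and 7.93 CPM in Control and 3.69, 3.89 and 4.36 CPM in FAC, a log2 fold change of -1.01 (SE 0.148, adjusted p = 4.057e-05 by edgeR). In these 3 genes every FAC library lay below every Control library, and the calls stood in all 16 alternatives. The values for Gm14322 and Gm14326 were -0.52 and -0.42 and did not pass. Gm14403 was 95.1% unique at 100 bases, whereas Gm14325 was 41.7% and Gm14327 32.1% unique. In windows of 200 bases the shares were 100%, 72.2% and 68.6% in the same order. How far shared sequence lowered their counts was not tested. Of the 29 genes whose promoter held the 30 shared bases, 12 were tested, 4 fell after FAC (Zfp970, Gm14403, Gm14325 and Gm14410) and none rose, where 19.1% of all genes were called lower and 17.5% higher. This count includes Zfp970, whose values were known, and Gm14327 is not among the 29. The call of Gm14410 was lost without Control replicate 2. Their median log2 fold change was -0.52, and it ranged from -2.69 to 0.52. The upper end, that of Gm4724, did not pass (adjusted p = 0.560 by edgeR), and differences among these genes were not tested.

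**Figure D4:**
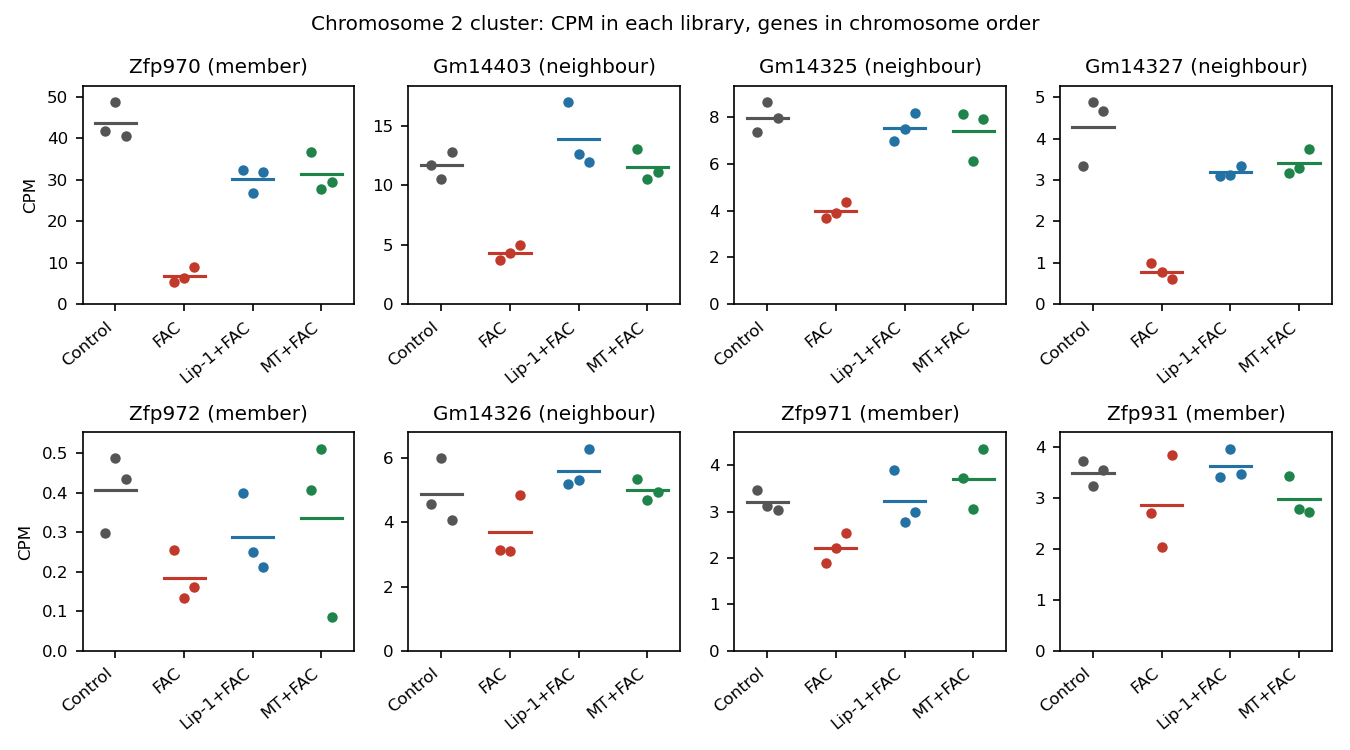
CPM in each library (points) and group mean (bars) for the 4 members of the chromosome 2 cluster and 4 protein-coding neighbours inside its span, each panel with its own linear axis from 0. The FAC points of Zfp970, at 5.33 to 8.88 CPM, lie below all its other points, as do those of Gm14403, Gm14325 and Gm14327.

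The chromosome 17 cluster was the largest, with 10 members at chr17:21567008-22867134. In FAC against Control 6 of its members fell and 1 rose, where 19.1% of all genes were called lower and 17.5% higher. Zfp948, the first gene of the cluster, rose. It had 17.7, 16.6 and 15.7 CPM in Control and 31.9, 28.7 and 25.6 CPM in FAC, a log2 fold change of 0.79 (SE 0.108, adjusted p = 2.01e-05 by edgeR). It had 24.9, 22.7 and 27.7 CPM in Lip-1+FAC, with 22.8, 21.5 and 26.3 CPM in MT+FAC. Every library given FAC, pretreated or not, lay above every Control library. Zfp983, the next member along the chromosome, went the other way. It had 4.02, 5.44 and 4.42 CPM in Control and 2.70, 1.99 and 3.27 CPM in FAC, a log2 fold change of -0.83 (SE 0.225, adjusted p = 0.00745 by edgeR), a call that was lost without FAC replicate 2. It had 4.88, 4.90 and 4.95 CPM in Lip-1+FAC, which lay within the Control range. In MT+FAC it had 5.72, 3.20 and 4.02 CPM, a spread that ran past both ends of the Control range and overlapped the FAC libraries. Its log2 fold change in MT+FAC against FAC was 0.73 (SE 0.224, adjusted p = 0.0148 by edgeR), a call lost without FAC replicate 2 or MT+FAC replicate 1. The promoters of these neighbours both held TGACGT.

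Zfp947 and Zfp995 were the members with the most similar coding sequences, at 95.04% identity over 1311 aligned bases, and both fell. Zfp947 had 3.08, 2.63 and 2.33 CPM in Control and 1.17, 1.42 and 1.74 CPM in FAC, a log2 fold change of -0.90 (SE 0.262, adjusted p = 0.0120 by edgeR). Zfp995 had 7.65, 5.59 and 5.84 CPM in Control and 3.98, 3.93 and 4.84 CPM in FAC, a log2 fold change of -0.59 (SE 0.161, adjusted p = 0.00813 by edgeR). Both calls were lost without Control replicate 1, which was the highest Control library for each gene. Despite the similar coding sequences, 97.4% of the windows of Zfp947 and 99.8% of those of Zfp995 were unique at 100 bases. Zfp946 had 17.7, 15.2 and 19.0 CPM in Control and 12.02, 12.1 and 12.9 CPM in FAC, a log2 fold change of -0.49 (SE 0.112, adjusted p = 0.00214 by edgeR) that stood in all 16 alternatives. Zfp944 had 18.7, 16.5 and 19.0 CPM in Control and 15.2, 14.8 and 15.6 CPM in FAC. Its fall of 0.25 on the log2 scale was borderline (adjusted p = 0.0498 by edgeR) and was lost in 13 of 16 alternatives, including each leave-one-out fit other than that without Control replicate 2. Zfp945, the last gene of the cluster, had 13.8, 13.5 and 15.8 CPM in Control and 19.8, 15.9 and 16.1 CPM in FAC, and its log2 fold change of 0.26 did not pass (adjusted p = 0.0793 by edgeR) except without Control replicate 3. The cluster thus held the first gene rising, 6 members falling and 3 without a call.

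**Figure D5:**
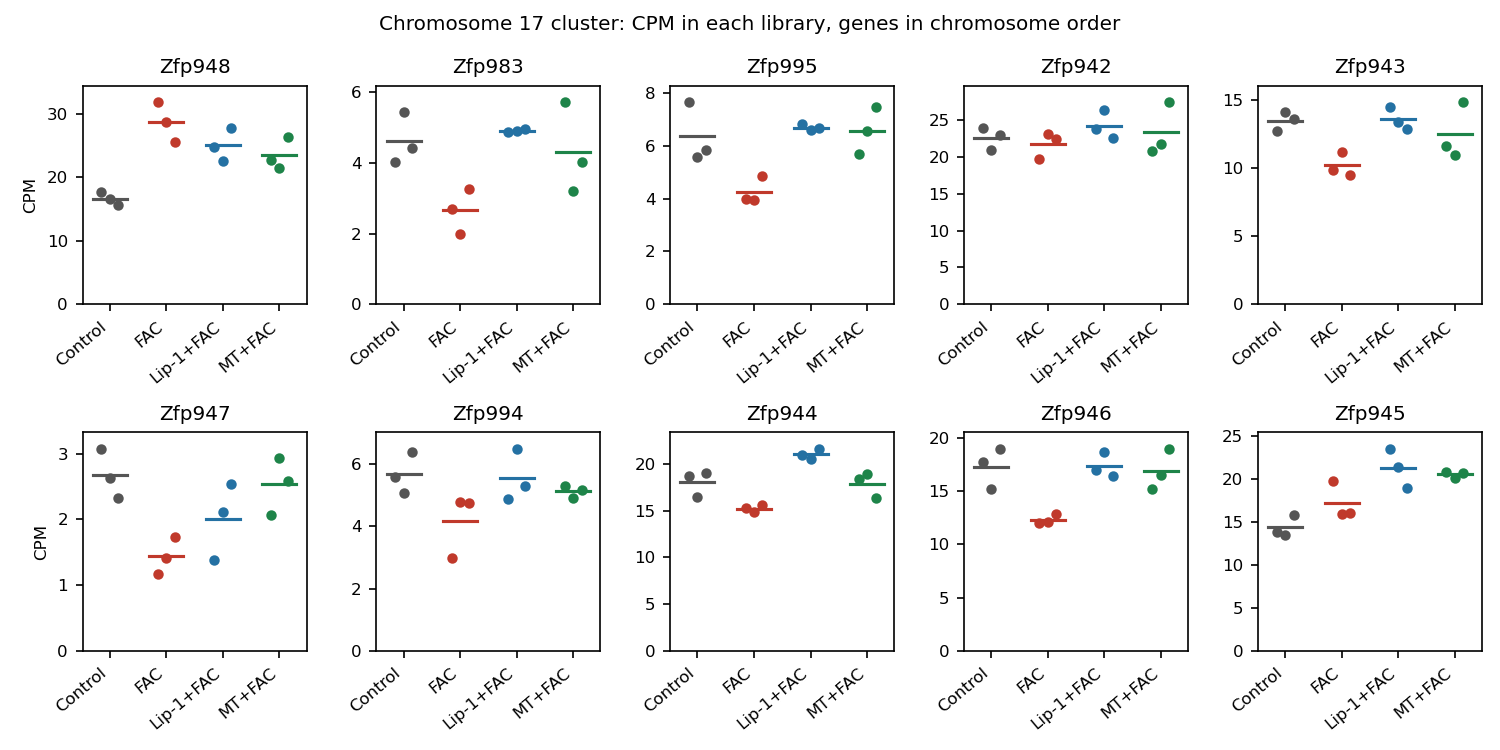
CPM in each library (points) and group mean (bars) for the 10 members of the chromosome 17 cluster, each panel with its own linear axis from 0. Zfp948 has its FAC points above and Zfp983 its FAC points below all Control points.

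Smaller clusters and single genes followed. Zfp975 and Zfp976 of a chromosome 7 cluster had coding sequences 90.5% identical over 1576 aligned bases. Zfp976 had 6.45, 5.48 and 4.62 CPM in Control and 3.14, 3.29 and 3.03 CPM in FAC, a log2 fold change of -0.80 (SE 0.185, adjusted p = 0.00238 by edgeR). Zfp975 had 3.93, 7.43 and 6.67 CPM in Control and 5.15, 4.50 and 5.25 CPM in FAC, groups that overlapped. Its log2 fold change of -0.29 (SE 0.189) did not pass (adjusted p = 0.255 by edgeR), but it passed without Control replicate 1, the lowest Control library. The difference between these neighbours was not tested. Zfp930 of the chromosome 8 cluster had 15.3, 13.8 and 12.3 CPM in Control and 8.44, 10.8 and 11.02 CPM in FAC, a log2 fold change of -0.45 (SE 0.130, adjusted p = 0.0110 by edgeR). That call was lost without Control replicate 1 and without FAC replicate 1. Neither member of the chromosome 4 pair nor of the chromosome 7 pair of Zfp974 and Zfp940 was called.

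Among the 15 members in no cluster, 5 fell and 1 rose, where 19.1% of all genes were called lower and 17.5% higher. Zfp950 on chromosome 19 had 10.04, 7.46 and 10.1 CPM in Control and 4.82, 5.27 and 4.52 CPM in FAC, a log2 fold change of -0.91 (SE 0.150, adjusted p = 0.000131 by edgeR). Zfp937, which lies on chromosome 2 more than 20 Mb away from Zfp970, had 2.18, 1.54 and 1.46 CPM in Control and 1.06, 0.709 and 1.01 CPM in FAC. Its log2 fold change of -0.92 (SE 0.339, adjusted p = 0.0416 by edgeR) was lost in 7 of 16 alternatives, among them the fits without Control replicates 1 or 2 and without FAC replicates 2 or 3. Zfp952 on chromosome 17, outside the cluster, had 7.69, 6.30 and 8.52 CPM in Control and 3.73, 5.44 and 4.72 CPM in FAC, a log2 fold change of -0.68 (SE 0.173, adjusted p = 0.00478 by edgeR). Zfp961 on chromosome 8 had 9.14, 7.50 and 8.21 CPM in Control and 5.77, 4.999 and 6.34 CPM in FAC, a log2 fold change of -0.55 (SE 0.153, adjusted p = 0.00891 by edgeR) that was lost without FAC replicate 2. In these genes every FAC library lay below every Control library. Zfp941 on chromosome 7 had 4.02, 3.53 and 3.24 CPM in Control and 5.12, 5.13 and 4.97 CPM in FAC, a log2 fold change of 0.50 (SE 0.148, adjusted p = 0.0128 by edgeR) that was lost without Control replicate 3.

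Lip-1+FAC against FAC asks how cells given the lipid ROS scavenger first differed from cells given FAC alone. Of the 39 members 18 were higher and 1 was lower, where 39.9% of all genes were called, 20.7% as higher and 19.2% as lower. The median log2 fold change was 0.41 over the members and 0.00062 over all genes tested, and among the other Zfp genes 57 were higher and 33 lower. In the chromosome 17 cluster 6 of 10 members were higher. They include Zfp945, whose libraries overlapped and whose call was lost in 6 of 16 alternatives, among them the fits without FAC replicates 2 or 3 and without Lip-1+FAC replicates 1 or 2. Zfp983 had the second largest rise, 0.91 (SE 0.224, adjusted p = 0.00347 by edgeR), after Zfp970. Zfp951 on chromosome 5 had 2.05, 3.22 and 2.54 CPM in FAC and 5.57, 3.25 and 4.61 CPM in Lip-1+FAC, a log2 fold change of 0.76 (SE 0.219, adjusted p = 0.0103 by edgeR). That call was lost without Lip-1+FAC replicate 1, the highest library. Zfp952 rose by 0.68 (SE 0.173, adjusted p = 0.00422 by edgeR) to 8.88, 7.68 and 5.92 CPM. Zfp995 rose by 0.66 (SE 0.160, adjusted p = 0.00315 by edgeR) to 6.80, 6.58 and 6.68 CPM. Zfp954, a single gene on chromosome 7, had 28.1, 23.4 and 27.6 CPM in FAC and 21.3, 22.7 and 21.5 CPM in Lip-1+FAC. It was the member called lower, by 0.27 on the log2 scale (adjusted p = 0.0301 by edgeR), and was lost in 6 of 16 alternatives, among them the fits without FAC or Lip-1+FAC replicates 1 or 3. Within the chromosome 2 cluster, Zfp971 rose by 0.54 (SE 0.205, adjusted p = 0.0435 by edgeR) to 3.89, 2.79 and 3.00 CPM, a call lost in 9 of 16 alternatives, among them the fits without FAC replicates 1 or 2 and without Lip-1+FAC replicates 1 or 3. Of its 5 tested neighbours 4 were higher, with log2 fold changes of 2.01 for Gm14327, 1.68 for Gm14403, 0.92 for Gm14325 and 0.61 for Gm14326. The call of Gm14326 was lost without FAC replicates 1 or 2 and without Lip-1+FAC replicate 3. Both members of the chromosome 4 pair, Zfp984 and Zfp933, named after their values were seen, were higher by 0.63 and 0.45. The Zfp984 call stood in all 16 alternatives, whereas that of Zfp933 was lost in 4 of 16, with GC and length offsets and without FAC replicate 2 or Lip-1+FAC replicates 1 or 3. The number of members called dropped to 12, all higher, without Lip-1+FAC replicate 1.

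MT+FAC against FAC asks the same of the mitochondrial ROS scavenger. Of the 39 members 17 were higher and 1 was lower, where 40.9% of all genes were called, 21.2% as higher and 19.7% as lower. The median log2 fold change was 0.45 over the members and -0.0011 over all genes tested, and among the other Zfp genes 61 were higher and 35 lower. Zfp976 had 3.14, 3.29 and 3.03 CPM in FAC and 6.69, 5.27 and 6.78 CPM in MT+FAC, a log2 fold change of 0.98 (SE 0.182, adjusted p = 0.000378 by edgeR). Zfp952 rose to 8.91, 8.31 and 8.46 CPM, a log2 fold change of 0.87 (SE 0.171, adjusted p = 0.000575 by edgeR). Zfp961 rose to 7.84, 9.90 and 11.6 CPM, a log2 fold change of 0.78 (SE 0.151, adjusted p = 0.0005 by edgeR). In these 3 genes every MT+FAC library lay above every FAC library. Zfp947 rose by 0.81 (SE 0.261, adjusted p = 0.0183 by edgeR) to 2.06, 2.94 and 2.59 CPM, a call lost without FAC replicate 1, FAC replicate 2 or MT+FAC replicate 2. Within the chromosome 2 cluster, Zfp971 rose by 0.74 (SE 0.203, adjusted p = 0.00754 by edgeR) to 3.72, 3.07 and 4.36 CPM, and this call stood in all 16 alternatives. Gm14327, Gm14403 and Gm14325 were higher by 2.10, 1.42 and 0.89 on the log2 scale. Zfp984 and Zfp933 were each higher by 0.49. The Zfp984 call was lost without FAC replicate 1 or MT+FAC replicates 2 or 3, and the Zfp933 call without FAC replicate 2. Zfp948 was the member called lower, by 0.29 on the log2 scale (adjusted p = 0.0346 by edgeR), although its libraries overlapped and the call was lost without FAC or MT+FAC replicates 1 or 2. The comparisons of FAC with Control, Lip-1+FAC and MT+FAC share the FAC libraries, so that a value low in those libraries enters all 3.

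MT+FAC against Lip-1+FAC compares the scavengers directly. No member was called by edgeR, where 1.34% of all genes were called, 0.465% as higher and 0.879% as lower, and 3 members had an unadjusted p under 0.05. DESeq2 called 1 member, and edgeR on the summed stranded columns called 1. Zfp941 had 7.93, 7.40 and 7.78 CPM in Lip-1+FAC, with 5.001, 5.91 and 4.84 CPM in MT+FAC, groups that did not overlap, with a log2 fold change of -0.55 (SE 0.140, adjusted p = 0.0601 by edgeR). It was the member with the largest value in this comparison. Zfp970 differed by 0.049 (SE 0.145) on the log2 scale. Zfp974 had 2.37, 2.11 and 2.03 CPM in Lip-1+FAC, with 2.69, 3.35 and 3.07 CPM in MT+FAC, a log2 fold change of 0.48 (SE 0.210, adjusted p = 0.316 by edgeR). A value that does not pass does not show that the scavengers act alike on a gene.

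Against Control, the pretreated groups had fewer called members. In Lip-1+FAC 3 members were higher and 2 lower, where 30.2% of all genes were called, 15.4% as higher and 14.8% as lower. In MT+FAC 4 were higher and 2 lower, where 19.8% were called, 9.71% as higher and 10.1% as lower. Leaving out each replicate in turn gave 3 to 6 called members in Lip-1+FAC and 2 to 5 in MT+FAC. In both comparisons Zfp948, Zfp945 and Zfp941 were higher. Zfp941 was 1.10 higher (SE 0.146, adjusted p = 1.936e-05 by edgeR) in Lip-1+FAC and 0.55 higher (SE 0.148, adjusted p = 0.0137 by edgeR) in MT+FAC on the log2 scale. The MT+FAC call was lost without Control replicate 3 and without MT+FAC replicate 2. Zfp945 had 23.6, 21.4 and 18.9 CPM in Lip-1+FAC, with 20.8, 20.2 and 20.8 CPM in MT+FAC, so that each pretreated library lay above all Control libraries. Its log2 fold changes against Control were 0.57 (SE 0.112, adjusted p = 0.000851 by edgeR) and 0.52 (SE 0.112, adjusted p = 0.00343 by edgeR). Zfp948 was higher by 0.59 (SE 0.109, adjusted p = 0.000486 by edgeR) and 0.50 (SE 0.109, adjusted p = 0.00391 by edgeR). Zfp974 was higher in MT+FAC by 0.72 (SE 0.213, adjusted p = 0.0230 by edgeR), a call lost in 5 of 16 alternatives, among them the fits without Control or MT+FAC replicates 2 or 3. Zfp937 was lower in Lip-1+FAC (-1.11, SE 0.349, adjusted p = 0.0222 by edgeR), with 0.800, 0.465 and 1.14 CPM, a call lost without Control replicate 1 and without Lip-1+FAC replicates 1 or 2. Zfp950 was called lower in MT+FAC (-0.43, SE 0.148, adjusted p = 0.0496 by edgeR), with overlapping libraries and the call lost in 9 of 16 alternatives, among them the fits without Control replicates 1 or 3 and MT+FAC replicates 1 or 2. Zfp970 had log2 fold changes of -0.53 (SE 0.145) in Lip-1+FAC and -0.48 (SE 0.144) in MT+FAC. Its call was lost with offsets for GC content and length in both, without Lip-1+FAC replicate 2 in the first, and without Control replicates 1 or 2 and MT+FAC replicates 2 or 3 in the second. These comparisons share the Control libraries with each other.

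The members' promoters were searched on both strands for 5 further motifs. Here too a member counted when any of its promoters held the motif, whereas the shares of all promoters count each promoter singly. The units therefore differ, and the difference between them was not tested. CCAAT, the box bound by NF-Y, was found in 26 of 37 members, including all 4 of the chromosome 2 cluster, and in 37.4% of all promoters. GGGCGG, the GC box, was found in 12 of 37 members and in 35.7% of all promoters. CACGTG, an E-box, was found in 7 members and in 7.15% of all promoters. TGACNNNGC, the core of the antioxidant response element, was found in 8 members and in 12.4% of all promoters. TGANTCA, the AP-1 element, was found in no member and in 7.81% of all promoters. Of the searched motifs, CCAAT was thus the only one present in the chromosome 2 members. A motif that is absent is only absent from these 300 bases.

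The partners through which KRAB zinc finger proteins act were given by a list of 26 genes, all tested. In FAC against Control 4 rose and 1 fell, where 17.5% of all genes tested were called higher and 19.1% lower, and their median log2 fold change was 0.0070. Trim28, the corepressor itself, had a log2 fold change of 0.19 and Setdb1 one of -0.012, and neither was called. Trim28 was called in 2 of 16 alternatives, without a filter on low counts and without Control replicate 2, and ranged from 0.065 to 0.33 over them all. Dnmt3a, a DNA methyltransferase, had 46.6, 43.5 and 44.5 CPM in Control and 83.8, 81.4 and 72.0 CPM in FAC, a log2 fold change of 0.82 (SE 0.0706, adjusted p = 1.142e-07 by edgeR). The other rises, those of Morc2a, Dnmt1 and Ehmt2, were between 0.22 and 0.41, and Mphosph8 of the HUSH silencing complex fell by 0.37 on the log2 scale. The libraries of Morc2a overlapped, and the calls of Morc2a and Mphosph8 were lost without FAC replicate 1. With GC and length offsets the calls of Mphosph8 and Ehmt2 were lost. Dnmt1 was near the threshold (adjusted p = 0.0429 by edgeR) and was lost in 8 of 16 alternatives, among them the fits without Control replicates 1 or 3 and without FAC replicates 1 or 2. Without FAC replicate 1 the number of partners called was 3. In Lip-1+FAC against FAC 7 partners were higher and 2 lower, where 20.7% of all genes were called higher and 19.2% lower. In MT+FAC against FAC 7 were higher and 1 lower, where the shares were 21.2% and 19.7%. The median log2 fold changes of the partners were 0.047 and 0.0998, respectively. Setdb1 was higher by 0.28 and 0.20, its cofactor Atf7ip by 0.40 and 0.37, and Fam208a, the core of HUSH, by 0.63 and 0.41. The other partners called higher in both were Morc3 by 0.54 and 0.47, the histone deacetylase Hdac2 by 0.38 and 0.36, the chromatin remodeller Smarcad1 by 0.36 and 0.23, and the histone methyltransferase Ehmt1 by 0.25 and 0.26. In MT+FAC against FAC the call of Setdb1 was lost in 6 of 16 alternatives, among them the fits without FAC or MT+FAC replicates 1 or 3. That of Smarcad1 was lost in 5, among them the fits without FAC replicates 2 or 3 and without MT+FAC replicates 1 or 3. Dnmt3a had a log2 fold change of -0.65 in MT+FAC against FAC (adjusted p = 1.443e-06 by edgeR), the largest change of a partner in that comparison. In Lip-1+FAC against FAC the partners called lower were Dnmt3a, at -0.19, and Ehmt2, at -0.24, whose call was lost with GC and length offsets. The Dnmt3a libraries overlapped there and its call was lost in 7 of 16 alternatives, among them the fits without FAC replicates 1 or 2 and without Lip-1+FAC replicates 2 or 3. Dnmt3a was the 1 partner called between the scavengers, with 73.7, 67.0 and 67.3 CPM in Lip-1+FAC, with 51.3, 51.1 and 48.7 CPM in MT+FAC, a log2 fold change of -0.46 (SE 0.0703, adjusted p = 0.0017 by edgeR). Against Control, 7 partners were higher and 1 lower in Lip-1+FAC, where 15.4% and 14.8% of all genes were. In MT+FAC 4 were higher and 0 lower, where 9.71% and 10.1% of all genes were. Called higher in both were Morc3 (0.58 and 0.51), Atf7ip (0.54 and 0.51), Fam208a (0.66 and 0.44) and Morc2a (0.48 and 0.35). In FAC against Control the first 3 were not called, at 0.034, 0.14 and 0.031. The MT+FAC calls of Fam208a and Morc2a were lost in 4 and 7 of 16 alternatives.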

How the data were processed

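The authors deposited raw read counts for each gene in 12 libraries, not normalized. STAR and build GRCm38 are named in the submitters' processing notes, and the version and annotation are not given in the sources used here. Per the labels' protocols, reads were paired-end with 100 bases. The unstranded column was used. Lines that name no gene held 18.8% to 24.2% of the reads and were left out of all totals and fits. Of 55487 identifiers, 55227 were found in GENCODE M21 (GRCm38), which gave names and coordinates. PCR reads without molecular identifiers are not independent molecules.

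Differences were tested with edgeR 4.0.16 in R 4.3.3 (filterByExpr, TMM, robust quasi-likelihood fit of 4 group means over 12 libraries, two-sided, Benjamini-Hochberg over 13535 genes, called under 0.05), after the script had been tested on simulated data. Standard errors are the log2 fold change divided by the square root of F. DESeq2 1.42.0, other scalings, filters and libraries were alternatives. Offsets for GC content and length were added after seeing the data. Members were joined into clusters where their gap was at most 2 Mb. Coding sequences were compared with blastn 2.17.0+ where at least 70% of the shorter one aligned, and promoters with biopython 1.88.

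Members and lists were chosen with earlier results of these data known. The rule for named genes took the chromosome 2 cluster, the 5 largest called rises and falls in each of 6 comparisons, the 5 highest levels per kilobase, the genes at the threshold, the 5 most similar pairs and the largest change in each other cluster of at least 3 members. Replicate numbers were not used to pair the libraries in the main fit, and whether equal numbers share an animal or culture is not known. One more gene of the partner list is not reported here and is not counted among the 26.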

Additional observations from a re-analysis of the deposited data

How the results depend on the processing

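The differences of members, neighbours and partners were recomputed under up to 16 alternatives per comparison. Filters left fewer for genes with few counts, 14 for Zfp972 and 13 for Zfp977 in FAC against Control. The partners called numbered 3 to 7 in FAC against Control, 8 to 10 in Lip-1+FAC against FAC and 6 to 10 in MT+FAC against FAC. Against Control they numbered 6 to 9 in Lip-1+FAC and 2 to 6 in MT+FAC. Of 192 counts of called members, 168 stayed within 1.5 times the reported count. Leaving out each replicate in turn gave 12 to 16 members in FAC against Control, 12 to 19 in Lip-1+FAC against FAC, 13 to 16 in MT+FAC against FAC, 0 to 0 in MT+FAC against Lip-1+FAC, 3 to 6 in Lip-1+FAC against Control and 2 to 5 in MT+FAC against Control. For the chromosome 2 cluster, in the same order, it gave 1 to 3, 1 to 3, 2 to 2, 0 to 0, 0 to 1 and 0 to 1. Upper-quartile scaling gave 2 members of that cluster in FAC against Control. In Lip-1+FAC against FAC it gave 1 without a filter, with only the libraries compared, thinned to equal depth and with GC and length offsets. With GC and length offsets it gave 0 in both pretreated groups against Control. DESeq2 and the summed stranded columns each gave 1 member in MT+FAC against Lip-1+FAC. Deviations from the group mean were correlated between libraries of different groups. Same-number pairs had correlations of -0.249 to 0.164 (median 0.0139, 3 of 18 over 0.1), and other pairs -0.196 to 0.221 (median -0.0193, 4 of 36). With so few libraries per group these values cannot settle whether equal numbers share an animal or culture. With the replicate block the member counts were 15, 18, 18, 0, 5 and 5, and that of the chromosome 2 cluster in Lip-1+FAC against FAC was 1. A tally covered only 72 of the members' log2 fold changes, and calls were also gained and signs also changed outside it. In FAC against Control, for example, Zfp954 was called in 6 of 16 alternatives and Zfp964 ranged from -0.636 to 0.0677. Of 1143 alternative values in the tally, 1024 kept their direction and side of the threshold, 101 lost the call, 4 gained it and 14 changed sign. None of the 14 belonged to a called value. Over the leave-one-out fits, with the sign changes among them, Zfp931 ranged from -0.125 to 0.3565 in MT+FAC against FAC and from -0.0173 to 0.1007 in Lip-1+FAC against Control, where it was -0.0009 without Control replicate 2. Zfp970 ranged from -0.0761 to 0.1154 in MT+FAC against Lip-1+FAC, Zfp971 from -0.1405 to 0.1145 in Lip-1+FAC against Control, and Zfp972 from -0.1648 to 0.6554 in MT+FAC against Lip-1+FAC and from -0.64 to 0.1661 in MT+FAC against Control. Zfp971 in Lip-1+FAC against Control became -0.0073 with upper-quartile scaling and -0.0335 thinned, and Zfp972 in MT+FAC against Control became 0.0693 with GC and length offsets. Windows of 200 bases in place of 100 gave 98.8% unique windows for Zfp970, and a gap of 1 Mb gave 5 clusters with 22 members. The cause of these differences was not tested. Zfp972 and Zfp977, with as few as 2 counts in a library, had standard errors of 0.591 and 0.657 in FAC against Control, and whether depth limited their calls was not tested.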
